A study of Mus musculus with 28 samples.

Results

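Acetylation of histone H3 at lysine 27 (H3K27ac) was compared between 2 cultures of one immunotherapy-resistant mouse lung adenocarcinoma line: the control culture of a knockdown experiment (Res_Ctrl) and the resistant line itself (Res). The comparison used the H3K27ac peak lists of 3 Res_Ctrl and 3 Res libraries, 6 of the 28 samples of the series and 6 of its 24 peak lists. Overlapping peaks of the 6 lists were merged into 27409 regions, of which 13895 had a peak in all 6 lists and were compared by their tag counts. The remaining regions could be compared only by the presence or absence of a peak.

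H3K27ac is placed by acetyltransferases such as p300 and CBP and marks active promoters and enhancers, whereas H3K9ac is found mostly at active promoters. Because the mark follows which regulatory elements a cell uses, its distribution is commonly read as a profile of cell identity and of active signalling. In lung adenocarcinoma, enhancers at endodermal factors, epithelial junction genes and growth-factor genes can carry the mark. The level of the mark at a gene is not a measure of its transcript.

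Both groups are labelled as resistant to PD-1 blockade. Res_Ctrl has the genotype Control and is the counterpart of a resistant culture with a hairpin against Fabp7 (Res_shFabp7); the construct it carries, its selection and any cloning were not spelled out in the labels. Res has the genotype Wild-type, and its label adds that the cells received PD-1 inhibitors, which the label of Res_Ctrl does not state. All cells were grown in RPMI-1640 with fetal bovine serum, fixed in 1% formaldehyde for 10 minutes and read as single 50-base reads. A control construct, drug exposure, passage and culture history are joined in this contrast and cannot be told apart. The labels call the 3 libraries of a group biological replicates without saying from which cultures they came, so p-values measure the spread between these libraries. A sensitive line (Sen) and Res_shFabp7, with 3 libraries each, are used below only for side values.

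The Res_Ctrl lists held 21097, 19965 and 22982 peaks and the Res lists 22252, 19811 and 19907. Tags in peaks came to 4.65, 3.70 and 4.65 M in Res_Ctrl, against 7.35, 5.33 and 5.08 M in Res, and the groups did not overlap. Called length was 55.4 ± 5.37 Mb in Res_Ctrl and 58.6 ± 7.01 Mb in Res (SD, n = 3 each). Tags per called kb were 80.5, 75.2 and 78.6 in Res_Ctrl, against 110.3, 96.7 and 94.1 in Res, also without overlap. Two-sided exact permutation tests gave p = 0.5 for the number of peaks, 0.1 for tags in peaks, 0.6 for called length and 0.1 for tags per called kb, where 0.1 is the smallest p that 3 against 3 libraries allow. The lower density of tags in Res_Ctrl peaks thus accompanies every result, and its part in them was not tested.

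Promoter sequences are shown for 7 genes on which the results turn, all with a tested region at the printed start. They are Krt7, Hnf4a and Fosb, which were higher in Res_Ctrl, and Asns, Plin2, Sparc and Clca3a1, which were lower. Each RefSeq sequence (GRCm38.p6, the assembly of mm10) runs from 250 bases before to 50 bases after an annotated start. Capitals mark any of 8 short motifs on either strand: AP-1 (TGANTCA), CRE (TGACGTCA), CARE (TGATGNAA, the element through which amino acid shortage acts on stress-response genes), FOXA (TGTTTAC), TEAD (GGAATG), the CCAAT box (CCAAT), the TATA box (TATAAA) and the GC box (GGGCGG).
Krt7 (chr15:101412153-101412452, plus strand): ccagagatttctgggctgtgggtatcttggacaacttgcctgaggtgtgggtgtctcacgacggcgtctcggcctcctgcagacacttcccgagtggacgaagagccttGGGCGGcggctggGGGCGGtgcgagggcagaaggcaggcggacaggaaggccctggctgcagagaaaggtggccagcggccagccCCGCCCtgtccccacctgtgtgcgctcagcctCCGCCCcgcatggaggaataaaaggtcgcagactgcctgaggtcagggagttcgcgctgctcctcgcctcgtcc
Hnf4a (chr2:163506607-163506906, plus strand): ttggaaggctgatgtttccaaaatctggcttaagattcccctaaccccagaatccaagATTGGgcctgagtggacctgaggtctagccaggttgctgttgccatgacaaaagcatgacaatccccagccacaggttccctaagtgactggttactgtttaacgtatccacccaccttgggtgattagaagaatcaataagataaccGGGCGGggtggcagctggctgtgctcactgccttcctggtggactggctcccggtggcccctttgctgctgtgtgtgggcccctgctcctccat
Fosb (chr7:19309996-19310295, minus strand): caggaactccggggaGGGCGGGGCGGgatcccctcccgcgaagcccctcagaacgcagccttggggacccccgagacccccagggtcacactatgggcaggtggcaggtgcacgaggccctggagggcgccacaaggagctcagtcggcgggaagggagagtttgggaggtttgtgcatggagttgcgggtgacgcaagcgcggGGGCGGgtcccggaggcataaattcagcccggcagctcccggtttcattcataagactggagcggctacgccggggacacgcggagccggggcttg
Asns (chr6:7693160-7693459, minus strand): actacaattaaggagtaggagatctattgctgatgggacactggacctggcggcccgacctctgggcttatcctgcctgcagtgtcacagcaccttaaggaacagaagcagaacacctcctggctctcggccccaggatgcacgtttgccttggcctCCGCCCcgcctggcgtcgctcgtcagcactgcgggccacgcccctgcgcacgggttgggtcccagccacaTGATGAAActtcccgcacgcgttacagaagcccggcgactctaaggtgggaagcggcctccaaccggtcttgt
Plin2 (chr4:86670010-86670309, minus strand): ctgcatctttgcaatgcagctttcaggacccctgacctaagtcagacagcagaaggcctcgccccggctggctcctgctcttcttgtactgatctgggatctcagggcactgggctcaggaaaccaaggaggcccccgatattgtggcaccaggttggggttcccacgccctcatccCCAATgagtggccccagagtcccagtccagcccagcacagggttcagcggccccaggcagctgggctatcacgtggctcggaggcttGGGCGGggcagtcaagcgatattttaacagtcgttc
Sparc (chr11:55420031-55420330, minus strand): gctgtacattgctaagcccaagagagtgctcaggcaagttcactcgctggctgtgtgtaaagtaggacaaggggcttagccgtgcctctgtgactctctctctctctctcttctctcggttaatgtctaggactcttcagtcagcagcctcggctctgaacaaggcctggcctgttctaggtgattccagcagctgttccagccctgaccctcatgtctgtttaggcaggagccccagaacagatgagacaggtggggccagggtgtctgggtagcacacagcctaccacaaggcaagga
Clca3a1 (chr3:144760928-144761227, minus strand): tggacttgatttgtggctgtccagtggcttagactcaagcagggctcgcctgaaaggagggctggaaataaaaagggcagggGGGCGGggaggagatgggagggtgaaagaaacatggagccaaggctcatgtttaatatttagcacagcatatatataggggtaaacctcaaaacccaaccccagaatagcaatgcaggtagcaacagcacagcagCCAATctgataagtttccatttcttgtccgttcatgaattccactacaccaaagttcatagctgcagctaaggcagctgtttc
The Asns promoter held 1 GC box and the CARE letters on the printed strand. Krt7 had 4 GC boxes and Fosb 3, of which 2 overlap. Hnf4a, Plin2 and Clca3a1 each had 1 CCAAT box and 1 GC box, and the Sparc window held none of the 8 motifs. The CARE letters stood in 2.49% of the promoters of the 1207 genes lower at a start with a printed sequence, in 1.45% of the 622 genes higher there, in 1.67% of all 6600 genes tested there and in 3.97% of the 32851 promoters of the table. AP-1 letters stood in 6.75% of the promoters of genes that were higher, 4.06% of those lower, 3.94% of those tested and 7.81% of the table. GC boxes were in 74.8% of promoters of genes that were higher, 72.2% of those lower, 70.8% of those tested and 35.7% of the table. Such matches are letters only and were not tested.

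H3K27ac differed between Res_Ctrl and Res at a large share of sites. With edgeR's quasi-likelihood test and Benjamini-Hochberg adjustment at 0.05, 2313 of the 13895 regions were higher in Res_Ctrl and 2820 were lower, 36.9% of those tested. An absolute log2 difference of at least 1 was reached by 582 of the higher and 532 of the lower regions, and of at least 2 by 47 and 35. At annotated gene starts 29.6% of 7248 tested regions had changed, at another gene end 34.5% of 1677, and away from both 48.5% of 4970. Annotated starts were at hand for 17492 genes, beside 21887 annotated protein-coding genes. Another gene end can therefore also be the start of a gene. Higher regions made up 45.1% of the changed ones; with tags divided by the called length of each region the counts were 1077 higher and 325 lower (76.8% higher), and 2027 and 2262 when libraries were rescaled after that division. Without Res replicate 2, 1829 regions were lower.

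Read by gene, 960 of 9143 genes with a tested region within 1 kb of an annotated end were higher in Res_Ctrl (10.5%) and 1704 were lower (18.6%), 29.1% in either direction. Counts of list members below are to be read beside these shares of all genes, and no list was tested against them. Higher genes made up 36.0% of those changed; this share was 48.4% after removal of each chromosome's median (672 higher, 715 lower), 48.5% after removal of 5 Mb window medians (600 and 638) and 61.7% per called base (312 and 194). Without Res replicate 2, 1035 genes were lower, and without Res_Ctrl replicate 3, 1096. Per called base after rescaling, which compares tag density and not the sum of tags, 1666 of the 2664 changed genes kept their call, and 2143 had a difference reversed or smaller by over 1.5 times, with a median absolute log2 of 0.26, against 0.55 as tested. After removal of chromosome medians 1131 kept their call and after removal of window medians 962. Genes with a printed difference that lost their call in any of these 3 ways are given below with at least 1 such value. Levels below are CPM, the tags of a region as a share of all tags in the tested regions of its library after TMM scaling, and differences are log2 ratios of Res_Ctrl to Res ± the standard error of the fit, each from 3 libraries against 3. A gene is said to have no peak when the lists hold none within 1 kb of either of its annotated ends. Peaks elsewhere in a gene are not counted. A region at the ends of several genes is counted for each of them, and its value cannot be assigned to a single gene. Such regions, for genes named singly below, include those of Alox12 (shared with Rnasek and 0610010K14Rik), Cd68 (Mpdu1), Cd79a (Arhgef1) and Pnpla2 (Cracr2b). Among the others are those of Spry4 (Arhgap26), Brd2 (H2-DMa), Junb (Hook2 and Prdx2), Fasn (Ccdc57), Ddit3 (Mbd6), Gapdh (Ncapd2), Tgfb1 (B9d2), Pdia4 (Zfp786) and Osgin1 (Mlycd).

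Genes with the largest changes were named only where the groups did not overlap, so that their separation was set by this choice. Changed members of lists were named among genes past the threshold, which favours separation too. The 10 largest increases among genes lay between 1.99 and 2.78 on the log2 scale. Pdxk, the kinase that makes active vitamin B6 (region chr10:78457579-78465957), had 131, 113 and 70.1 CPM in Res_Ctrl, against 16.8, 15.4 and 13.2 in Res (log2 2.78 ± 0.23, adjusted p = 1.34e-05). Its 3 Res_Ctrl libraries lay far above all Res libraries although they differed among themselves, and per called base after rescaling the difference was 0.37. Cd53, a tetraspanin of leukocytes (chr3:106784371-106791069), had 168, 198 and 202 in Res_Ctrl, against 29.02, 33.7 and 48.6 in Res (log2 2.36 ± 0.17, adjusted p = 6.84e-06). Itgb2, the beta-2 integrin of leukocytes (chr10:77529618-77533339), had 63.9, 97.9 and 87.01 in Res_Ctrl, against 21.5, 17.4 and 20.2 in Res (log2 2.06 ± 0.18, adjusted p = 1.81e-05). At both genes the groups stood apart in every library. Of 18 immune cell markers, Ptprc, Cd3e, Itgam, Csf1r and 9 others had a peak at their annotated ends in none of the 6 lists. Of the 3 tested, Cd14 was higher (0.54), Cd79a did not pass (0.23), and Cd68 was lower (-0.47), but not without Res_Ctrl replicate 3 (-0.41, adjusted p = 0.0561); the list median was 0.23. Cd14 lost its call per called base after rescaling (0.08) and after removal of chromosome (0.32) or window medians (0.16), and so did Cd68 (-0.16, -0.08 and -0.23).

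Among the other large increases, Aqp1, a water channel (chr6:55336661-55343440), had 117, 149.8 and 138 CPM in Res_Ctrl, against 33.2, 31.1 and 25.8 in Res (log2 2.16 ± 0.14, adjusted p = 3.74e-06). Atp2c2, a Golgi calcium pump (chr8:119694718-119700123), had 114, 121 and 121 in Res_Ctrl, against 20.04, 30.4 and 38.6 in Res (log2 2.01 ± 0.19, adjusted p = 3.1e-05). Eps8l3 (chr3:107872675-107880871) had 236, 285 and 249 in Res_Ctrl, against 77.1, 37.1 and 78.3 in Res (log2 1.99 ± 0.22, adjusted p = 7.62e-05). In all of them the lowest Res_Ctrl library exceeded the highest Res library. The regions of Pdxk, Cd53, Aqp1 and Eps8l3 covered an annotated start. Those of Itgb2 and Atp2c2 matched no start at hand and lay at an annotated gene end, which may be either end of the gene. The region shared by the zinc importer gene Slc39a4 and Vps28 (2.38), and those of the bicarbonate transporter gene Slc4a9 (2.09) and the organic anion transporter gene Slco3a1 (1.99) were also among the 10. Per called base after rescaling the differences were 0.90 at Cd53, 0.86 at Aqp1, 0.90 at Itgb2, 0.81 at Atp2c2, 0.97 at Eps8l3 and 0.43 at Slc4a9, all still past the threshold. Slc4a9 was at 0.15 when the gene window was widened to 2500 bases.

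The 10 largest decreases, named by the same rule, lay between -3.22 and -1.86. Clca3a1, a calcium-activated chloride channel regulator (chr3:144758958-144768216), had 24.4, 23.01 and 32.7 CPM in Res_Ctrl, against 228, 272 and 248 in Res (log2 -3.22 ± 0.14, adjusted p = 1.89e-06). Sparc, a secreted matrix-binding glycoprotein (chr11:55413287-55421545), had 30.8, 37.6 and 34.3 in Res_Ctrl, against 172, 178 and 183 in Res (log2 -2.38 ± 0.11, adjusted p = 1.89e-06). Ccnd2, which encodes cyclin D2 of the G1 phase (chr6:127147980-127151412), had 16.03, 15.9 and 14.3 in Res_Ctrl, against 74.2, 76.5 and 94.8 in Res (log2 -2.41 ± 0.16, adjusted p = 4.08e-06). At these 3 genes the Res libraries were several times higher and close to one another. Nrp1, a co-receptor for semaphorins and VEGF (chr8:128355654-128362214), had 44.9, 17.1 and 25.2 in Res_Ctrl, against 147, 134 and 111 in Res (log2 -2.15 ± 0.26, adjusted p = 0.000127). Fn1, fibronectin (chr1:71649480-71654806), had 34.3, 19.3 and 31.9 in Res_Ctrl, against 108, 110.1 and 126 in Res (log2 -1.99 ± 0.18, adjusted p = 2.29e-05). Gpc6, a cell-surface heparan sulfate proteoglycan (chr14:116924699-116929935), had 32.8, 26.7 and 45.2 in Res_Ctrl, against 129, 146 and 136 in Res (log2 -1.96 ± 0.16, adjusted p = 1.45e-05). Again no Res_Ctrl library reached the lowest Res library. The regions of Clca3a1, Sparc and Nrp1 covered an annotated start. Those of Ccnd2, Fn1 and Gpc6 matched no start at hand and lay at an annotated gene end, which may be either end of the gene. The rest of the 10 were the region shared by Pus10 and the NF-kB subunit gene Rel (-2.58), the interferon-inducible Mndal (-2.19), the coronin gene Coro6 (-2.17) and the region shared by Mdh1, the cytosolic malate dehydrogenase, and Wdpcp (-1.86, but -0.08 per called base after rescaling). Per called base after rescaling the differences were -1.01 at Clca3a1, -0.56 at Sparc, -0.99 at Ccnd2, -0.89 at Nrp1, -0.62 at Fn1, -0.90 at Gpc6 and -0.35 at Coro6, all still past the threshold.

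**Figure D1:**
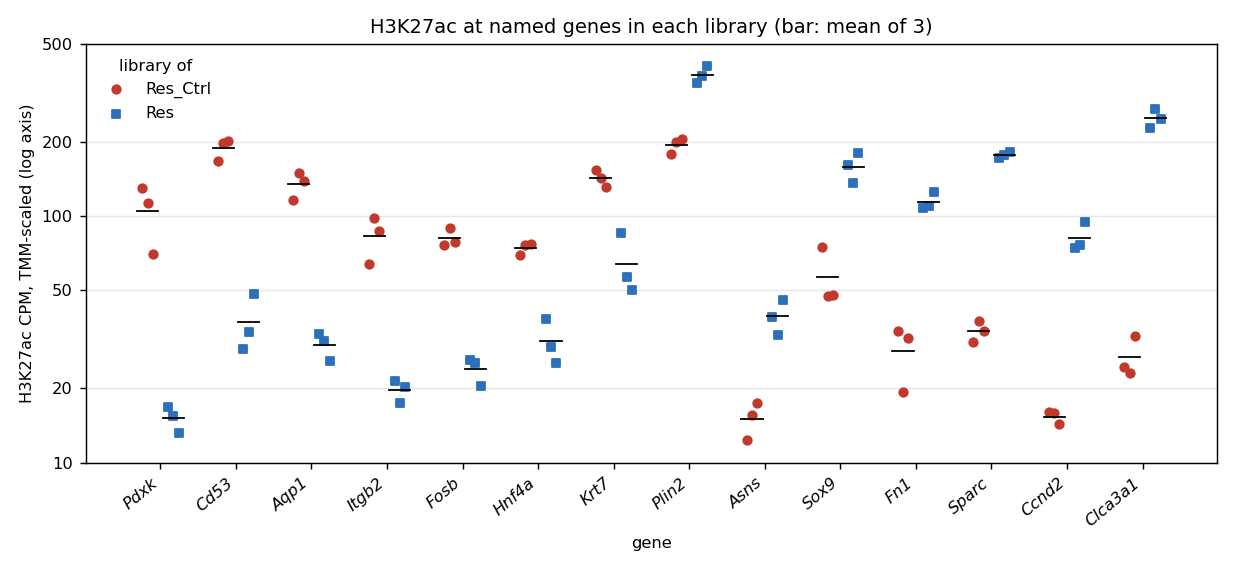
H3K27ac levels in TMM-scaled CPM (log axis) at 14 genes in each of the 3 Res_Ctrl libraries (red circles) and the 3 Res libraries (blue squares), with black bars for the means. The groups did not overlap at any of the 14, which the choice of genes fixed at least in part. The genes run from Pdxk (log2 2.78) on the left to Clca3a1 (-3.22) on the right.

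Of 13 tested genes of epithelial keratins and junctions 8 were higher in Res_Ctrl and 0 lower by edgeR's test, beside 10.5% and 18.6% of all genes, with a median log2 of 0.48 against -0.03 over all genes tested (DESeq2 also gave 8 and 0; 1 was lower at an unadjusted p under 0.05). Krt7, a simple-epithelium keratin, had 153, 143 and 132 CPM in Res_Ctrl, against 85.3, 56.5 and 50.4 in Res (log2 1.14 ± 0.17, adjusted p = 0.000568). Pkp3, a desmosomal plakophilin, had 65.6, 74.3 and 68.1 in Res_Ctrl, against 29.3, 33.7 and 36.9 in Res (log2 1.06 ± 0.14, adjusted p = 0.000209). The tight-junction scaffold gene Tjp3, whose region also lies at Pip5k1c, had 50.8, 78.7 and 70.1 in Res_Ctrl, against 32.4, 36.6 and 36.5 in Res (log2 0.92 ± 0.17, adjusted p = 0.00195). The groups were separate at all 3. Krt18 (0.54), the desmosomal Dsp (0.52), Krt19 (0.48) and the splicing factor gene Esrp2 (0.41) were among the others that rose. Krt8 (0.09), Elf3 (-0.04), Jup (-0.09), Marveld3 (-0.13) and Cldn6 (-0.16) did not pass. A second Pkp3 region, shared with Sigirr, had peaks of 82, 145 and 149 tags in the Res_Ctrl lists and none in the Res lists. Cdh1 and Epcam, defining epithelial genes, had peaks in some of the 6 lists, and 11 of the 28 listed genes had none. The same 8 passed without any 1 library and 10 were higher after removal of chromosome medians, whereas per called base after rescaling 5 were higher and 1 lower, with Krt18 at -0.10 and Krt19 at -0.06. Dsp (0.12) then lost its call too, and after removal of window medians (0.37), and Esrp2 after removal of chromosome medians (0.15).

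Mesenchymal and matrix genes were divided: 6 of 18 tested were lower in Res_Ctrl and 4 higher, beside 18.6% and 10.5% of all genes, with a median of -0.11. Col1a1, type I collagen, had 24.7, 20.2 and 30.4 CPM in Res_Ctrl, against 67.2, 72.6 and 85.3 in Res (log2 -1.57 ± 0.17, adjusted p = 6.38e-05). Snai2, a repressor of epithelial genes, had 29.8, 32.3 and 31.2 in Res_Ctrl, against 50.8, 59.3 and 107 in Res (log2 -1.21 ± 0.25, adjusted p = 0.00373). Both separated the groups, as did Sparc and Fn1. Tgfbr1, a TGF-beta receptor gene (-0.72), and Spp1, osteopontin (-0.60), were the other 2 that fell. The basement-membrane collagen genes Col4a1 and Col4a2, which share a region (0.59), and Tgfb1 (0.59) rose. Vim (-0.16) and Zeb1 (0.11) did not pass. Twist2 and Col1a2 had start-site peaks in 3 of 3 Res lists and in 0 of 3 Res_Ctrl lists, and in no Sen or Res_shFabp7 list. Of 19 fibroblast and endothelial markers 14 had no peak at their annotated ends in the 6 lists, among them Pdgfra, Pdgfrb, Pecam1 and Cdh5. The 3 tested were lower and 0 higher (edgeR and DESeq2; 0 also at an unadjusted p under 0.05), with a median of -1.57; they were Rgs5, a pericyte marker (-1.74), Col1a1 and Flt1, of which Flt1 did not pass without each of 4 libraries in turn. The region of Col4a1 and Col4a2 lost its call per called base after rescaling (0.14) and after removal of chromosome (0.34) or window medians (0.29). Tgfbr1 lost its call after removal of window medians (-0.03), and Flt1 after that (-0.52) or of chromosome medians (-0.61).

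Among the 4 groups of the series Res stood at the end away from Res_Ctrl at most changed genes, a place that the choice of changed genes fixes in part. Of changed genes called in all 12 H3K27ac lists, Res was the lowest group at 755 of 925 that were higher in Res_Ctrl (81.6%) and the highest at 1411 of 1607 that were lower (87.8%). It was the lowest at 7 of 8 higher epithelial genes and 4 of 4 higher matrix genes, and the highest at 8 of 8 lower stress-response genes and 4 of 4 lower matrix genes. The scale here is that of the 11831 regions called in all 12 H3K27ac lists, and no difference other than that of Res_Ctrl and Res was tested. Krt7 averaged 159 ± 11.3 CPM in Res_Ctrl, 130.3 ± 11.8 in Res_shFabp7, 189 ± 23.2 in Sen and 69.8 ± 19.7 in Res (SD, n = 3 each). Sparc averaged 38.2 ± 3.91 in Res_Ctrl, 64.7 ± 3.76 in Res_shFabp7, 84.2 ± 1.99 in Sen and 194 ± 7.72 in Res. Sparc was lowest in Res_Ctrl, then Res_shFabp7, Sen and Res, and Krt7 was lowest in Res, then Res_shFabp7, Res_Ctrl and Sen; each mean differed from the next by more than either SD. Tjp3 averaged 74.2 ± 16.2 in Res_Ctrl, 84.9 ± 27.9 in Res_shFabp7, 67.3 ± 6.90 in Sen and 38.4 ± 2.91 in Res, so that all but Res lay within their SDs.

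**Figure D2:**
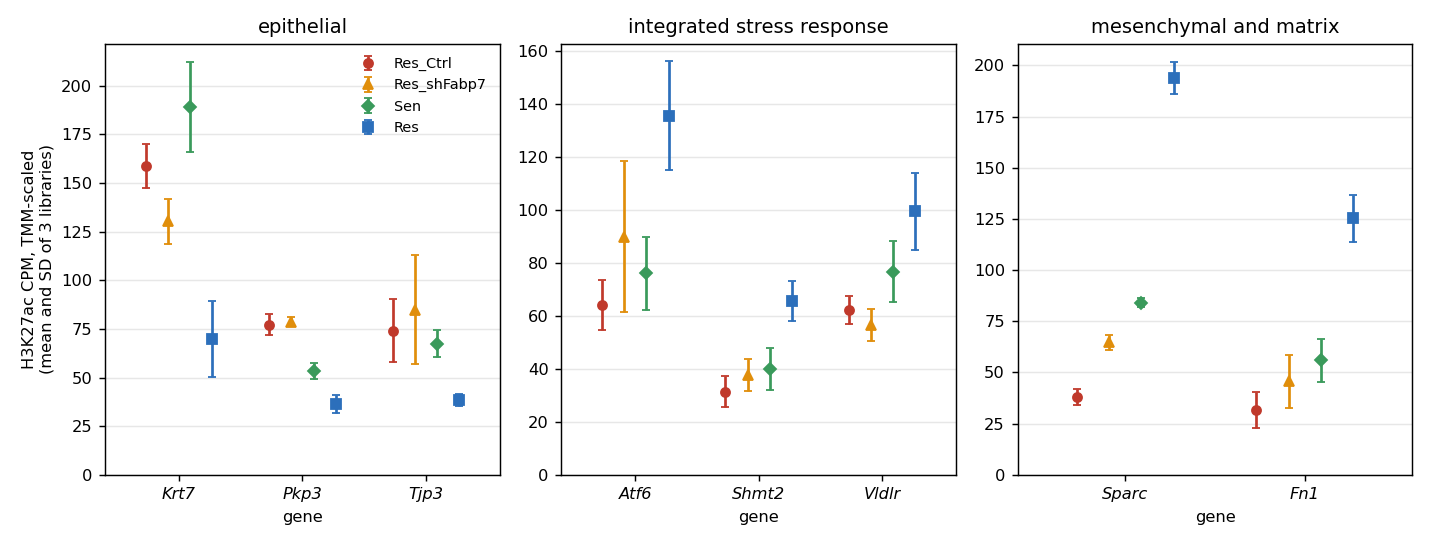
H3K27ac levels in TMM-scaled CPM (mean and SD of 3 libraries) in Res_Ctrl, Res_shFabp7, Sen and Res at 8 epithelial, stress-response and matrix genes called in all 12 lists. Res was the lowest group at the 3 epithelial genes and the highest at the 5 others, as for Sparc at 38.2 in Res_Ctrl against 194 in Res.

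Genes of the integrated stress response and the unfolded protein response were lower in Res_Ctrl in 9 of 21 tested cases and higher in 1. These counts stand beside 18.6% and 10.5% of all genes, and the list median was -0.37. Asns, asparagine synthetase, whose promoter letters are printed above, had 12.3, 15.5 and 17.4 CPM in Res_Ctrl, against 39.1, 32.9 and 45.8 in Res (log2 -1.38 ± 0.21, adjusted p = 0.000533). Shmt2, of mitochondrial one-carbon metabolism, had 33.5, 27.98 and 22.9 in Res_Ctrl, against 52.6, 62.6 and 64.8 in Res (log2 -1.09 ± 0.17, adjusted p = 0.000702). The stress sensor gene Atf6 had 50.6, 55.6 and 66.5 in Res_Ctrl, against 106, 124 and 142 in Res (log2 -1.10 ± 0.14, adjusted p = 0.00018). At these 3 genes every Res_Ctrl library was below every Res library. Vldlr (-0.70), Psat1 of serine synthesis (-0.65) and the factor genes Ddit3 (-0.61) and Xbp1 (-0.58) also fell, while the disulfide isomerase gene Pdia4 rose (0.65). Atf4, the central factor of the response, did not pass (-0.22). Trib3, a pseudokinase induced by the response, had peaks of 92 and 58 tags in 2 of 3 Res_Ctrl lists, against 340, 275 and 366 tags in the Res lists. The 7 genes named as lower kept their call without any 1 library, and 8 of the list were lower after removal of chromosome medians. Xbp1 then lost its call (-0.20), as did Pdia4 per called base after rescaling (0.21).

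Of 16 tested p53 targets 6 were lower and 1 higher (median -0.20), beside 18.6% and 10.5% of all genes. After removal of chromosome medians 4 were lower and 0 higher. The growth inhibitor gene Btg2 had 61.7, 63.4 and 46.2 CPM in Res_Ctrl, against 107, 117 and 89.5 in Res (log2 -0.88 ± 0.15, adjusted p = 0.00106), with the groups apart. Trp53inp1 (-0.76) and Phlda3 (-0.68) were lower too, and the calls of these 3 held without any 1 library. Btg2 lost its call per called base after rescaling (-0.12), and Phlda3 after removal of chromosome medians (-0.28) or window medians (-0.19). Ccng1 was lower (-0.76), but not without Res replicate 2 (-0.64, adjusted p = 0.0552). Mdm2 did not pass (0.07), and Cdkn1a had no peak at its annotated ends in any of the 6 lists, nor had Cdkn2a of the cell cycle list. Chromosome medians removed, Ccng1 was at -0.38, and window medians removed at -0.16, both below the threshold.

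Fatty acid binding proteins carry lipids inside cells, and ferroptosis is a cell death driven by lipid peroxidation. Of 13 genes of the fatty acid binding protein family, including the retinoid carriers, 11 had no H3K27ac peak at their annotated ends in any of the 6 lists. Fabp7, Fabp3 and Fabp4 were among these 11, and none of the 13 could be tested. Fabp5 had 1 peak of 66 tags among the Res_Ctrl lists, against peaks of 240, 140 and 110 tags in the Res lists. Among genes that favour ferroptosis 7 of 14 tested were lower in Res_Ctrl and 1 higher (median -0.37), beside 18.6% and 10.5% of all genes. After removal of chromosome medians 3 were lower and 1 higher. Cyb5r1, a reductase gene, had 42.7, 41.3 and 40.3 CPM in Res_Ctrl, against 80.01, 86.9 and 133 in Res (log2 -1.27 ± 0.19, adjusted p = 0.00046), and the groups lay apart. The glutamine transporter gene Slc1a5 (-0.76), Alox12 (-0.53) and the iron importer gene Slc11a2 (-0.60, but 0.10 per called base after rescaling) were lower, and the glutaminase gene Gls2 was higher (0.77). Of the 7, 4 passed without Res_Ctrl replicate 3 and 4 without Res replicate 1. Acsl4, which feeds polyunsaturated fatty acids into membranes, had 1 peak of 71 tags among the Res_Ctrl lists, against 103, 111 and 85 tags in the Res lists. After removal of chromosome or window medians Slc11a2 (-0.30 and -0.40) and Alox12 (-0.15 and -0.16) lost their calls.

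In the list of genes that protect from ferroptosis 3 of 17 were higher and 3 lower (median 0.16), beside 10.5% and 18.6% of all genes. Ncoa4, counted in this list, did not pass (-0.12) and is not a protective gene. Gpx4, the glutathione peroxidase at the centre of the defence, had 131, 122 and 117 CPM in Res_Ctrl and 116, 127 and 121 in Res, overlapping groups with a log2 difference of 0.02 ± 0.09 (adjusted p = 0.865, edgeR). Gch1, which starts tetrahydrobiopterin synthesis, had 31.6, 16.8 and 18.96 in Res_Ctrl, against 48.9, 50.5 and 54.4 in Res (log2 -1.18 ± 0.22, adjusted p = 0.00211). The autophagy receptor gene Sqstm1 had 94.5, 106 and 100.3 in Res_Ctrl, against 168, 199.6 and 238 in Res (log2 -1.01 ± 0.13, adjusted p = 0.000174). Gch1 and Sqstm1 separated the groups completely. Prdx6 was lower as well (-0.45), and Gsr, glutathione reductase, was higher (0.67); the other 2 higher genes lost their calls without Res_Ctrl replicate 2. Aifm2, which encodes the ubiquinone reductase FSP1, had peaks of 120, 83 and 109 tags in the Res_Ctrl lists and none in the Res lists. Slc7a11, the cystine transporter gene, had no peak within 1 kb of its annotated ends in any list. Of 13 glutathione and NRF2 targets 3 were higher, Gsr, Pgd (0.69) and Osgin1 (0.38), and 1 lower, with a median of 0.27; 5 were higher and 0 lower without Res replicate 1, and 0 lower also without Res_Ctrl replicate 2 or Res replicate 2. With chromosome medians removed Prdx6 was at -0.06 and Osgin1 at 0.13, and with window medians removed at 0.10, the opposite direction, and 0.02, none of them past the threshold.

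Plin2, which coats lipid droplets, had 178, 201 and 205 CPM in Res_Ctrl, against 346, 370.3 and 406 in Res (log2 -0.94 ± 0.09, adjusted p = 3.54e-05). Every Res_Ctrl library was well below every Res library, and H3K9ac there differed by -1.23. The lipase genes Lipe (log2 1.05 ± 0.13, adjusted p = 0.000169) and Pnpla2 (0.51) were higher. Thus 2 of 13 droplet genes were higher and 1 lower (median 0.06), and without Res_Ctrl replicate 1, 2 were lower. These counts and those of the lipid lists that follow stand beside 10.5% higher and 18.6% lower of all genes. In fatty acid uptake and activation 1 of 9 was higher and 3 lower (median 0.26), of which the call of Slc27a1 alone held without any 1 library. Slc27a1, a transporter gene, had 30.3, 37.9 and 36.1 in Res_Ctrl, against 66.1, 70.1 and 98.1 in Res (log2 -1.17 ± 0.17, adjusted p = 0.000521), but 0.04 per called base after rescaling. In fatty acid synthesis and desaturation 5 of 13 were lower, among them Srebf1 (-0.56), Fasn (-0.52) and Scd1 (-0.54), and 2 were higher, Elovl1 (0.63) and Me1 (0.55), with a median of -0.14; after removal of chromosome medians 2 were lower. The desaturase gene Scd4 had a start-site peak of 396, 316 and 161 tags in the Res lists and none in the Res_Ctrl lists. In cholesterol synthesis and uptake 2 of 16 were higher, one of them the sterol carrier gene Stard4 (0.96), and Sqle was lower (-0.76), with a median of 0.29; 1 was higher without Res_Ctrl replicate 1 or Res replicate 3. Calls lost per called base after rescaling were those of Stard4 (0.17), Sqle (-0.20), Fasn (-0.18) and Me1 (0.07). Calls lost after removal of chromosome or window medians were those of Pnpla2 (0.26 and 0.28), Srebf1 (-0.18 and -0.24) and Fasn (-0.13 and -0.16), and after window medians alone those of Elovl1 (0.37) and Sqle (-0.42).

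Endodermal and lung factors changed in both directions, with 4 of 18 higher and 4 lower (median 0.02), beside 10.5% and 18.6% of all genes. Hnf4a, a factor of liver and gut epithelium, had 69.8, 76.2 and 77.1 CPM in Res_Ctrl, against 38.3, 29.6 and 25.3 in Res (log2 1.25 ± 0.16, adjusted p = 0.000202). Foxa2, a pioneer factor of endoderm, had 239, 251 and 257 in Res_Ctrl, against 146, 149.5 and 139 in Res (log2 0.78 ± 0.08, adjusted p = 5.35e-05). At both genes the groups lay apart. Gata6 was also higher (0.66). Sox9, a factor of distal lung progenitors and of chondrocytes, went the other way, with 75.2, 47.3 and 48.1 in Res_Ctrl, against 161, 136 and 179.8 in Res (log2 -1.48 ± 0.18, adjusted p = 0.000127). Id2 was lower too (-0.55), as was Igf2bp1 (-0.43), but not without Res_Ctrl replicate 3 (-0.33, adjusted p = 0.0698) or Res replicate 2 (-0.37, adjusted p = 0.071), when 2 of the list were lower. Nkx2-1 and Napsa, defining genes of lung adenocarcinoma, and the alveolar Sftpa1 and Sftpd had no peak at their annotated ends in any of the 6 lists. Foxa2 lay in a window of chromosome 2 that was higher as a whole, and after removal of 5 Mb window medians its difference was 0.17, below the threshold. Igf2bp1 was at -0.03 then, and at -0.05 after removal of chromosome medians, also below it.

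Growth-factor and MAPK genes were higher in 6 of 21 cases and lower in 2 (median 0.15), beside 10.5% and 18.6% of all genes. The EGFR ligand gene Tgfa had 38.97, 49.4 and 41.04 CPM in Res_Ctrl, against 24.1, 24.9 and 20.7 in Res (log2 0.89 ± 0.17, adjusted p = 0.00259), with the groups apart. Another ligand gene, Hbegf (0.55), the feedback inhibitor gene Spry4 (0.77) and the factor gene Ets2 (0.99, but -0.08 per called base after rescaling) were higher, and Spred2 was lower (-0.45), all of them also without any 1 library. Fgfr1, a receptor gene, had 2 regions with peaks in 3 of 3 Res and 0 of 3 Res_Ctrl lists. Tgfa lost its call per called base after rescaling (0.23), Hbegf after removal of window medians (0.17), and Spred2 after removal of chromosome (-0.06) or window medians (-0.03).

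Of 23 immediate early and AP-1 genes 7 were higher and 5 lower (median 0.06), beside 10.5% and 18.6% of all genes. Without Res_Ctrl replicate 3, 4 were higher and 3 lower, and 3 were also lower without Res replicate 1. Fosb had 76.7, 89.8 and 78.96 CPM in Res_Ctrl, against 26.1, 25.4 and 20.4 in Res (log2 1.76 ± 0.14, adjusted p = 1.34e-05), while with only peaks of p 1e-10 or lower its value was 0.42, below the threshold. Junb (0.44) and Zfp36 (0.67) rose as well. Myc had 228, 205 and 197 in Res_Ctrl, against 341, 348 and 386 in Res (log2 -0.77 ± 0.09, adjusted p = 9.87e-05), and Klf4 had 116, 104 and 109.9 in Res_Ctrl, against 171, 193 and 193 in Res (log2 -0.75 ± 0.10, adjusted p = 0.000173). The groups did not overlap at Fosb, Myc or Klf4. Myc and Klf4 lie in windows of chromosomes 15 and 4 that were lower as a whole, and after removal of window medians Myc was at -0.24 and Klf4 at -0.02, both below the threshold. Junb lost its call after removal of chromosome (0.19) or window medians (0.23).

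NF-kB factors and targets were higher in 3 of 17 cases and lower in 3 (median 0.06), beside 10.5% and 18.6% of all genes. Without Res_Ctrl replicate 2, Res_Ctrl replicate 3 or Res replicate 2, 1 was lower, and Rel was the gene lower in all 6 cases. The region of Rel is shared with Pus10 and matched no start at hand. The deubiquitinase gene Tnfaip3 had 227, 239 and 199 CPM in Res_Ctrl, against 135, 146 and 82.7 in Res (log2 0.87 ± 0.18, adjusted p = 0.0033), and the co-activator gene Bcl3 was higher too (0.84). Tnfaip2 was higher in a region away from its annotated starts (log2 1.84 ± 0.12, adjusted p = 3.18e-06), but the region at its start differed by -0.04. Csf1 and Csf2, which encode macrophage and granulocyte-macrophage colony-stimulating factors, had peaks in 3 of 3 Res_Ctrl and 0 of 3 Res lists, and the chemokine genes Ccl2 and Ccl20 the reverse. Of 12 interferon-response genes 3 were higher and 1 lower (median 0.21), and 2 were lower without Res replicate 3. The region of Isg15, a ubiquitin-like protein, also lies at Agrn and had 127, 126 and 135 in Res_Ctrl, against 41.05, 38.8 and 34.6 in Res (log2 1.75 ± 0.11, adjusted p = 3.1e-06). Jak2 was higher (0.48), Ifngr2 lower (-0.58), and Jak1 did not pass (0.24 ± 0.21, adjusted p = 0.402). Cd274, which encodes the PD-1 ligand PD-L1, had peaks of 121, 83 and 94 tags in the Res_Ctrl lists, against 135 and 123 tags in 2 of the 3 Res lists. Of 12 class I antigen-presentation genes 1 was higher and 2 lower (median -0.13), and of these H2-M3 (-0.96) passed without any 1 library; B2m (-0.19) and H2-D1 (-0.18) did not pass. Tnfaip3 lost its call after removal of window medians (0.42), and Ifngr2 per called base after rescaling (-0.09).

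Hypoxia and glycolysis genes were higher in 9 of 19 cases and lower in 2 (median 0.34), beside 10.5% and 18.6% of all genes. The glucose transporter gene Slc2a1 had 59.7, 49.7 and 60.00 CPM in Res_Ctrl, against 37.2, 37.3 and 24.6 in Res (log2 0.77 ± 0.18, adjusted p = 0.007). The kinase gene Pdk1 had 48.8, 53.2 and 47.5 in Res_Ctrl, against 29.5, 28.2 and 27.2 in Res (log2 0.81 ± 0.14, adjusted p = 0.0015). No Res library reached a Res_Ctrl library at either gene. The glycolytic Hk2 (0.60), Aldoa (0.57), Ldha (0.47), Gapdh (0.47) and Pfkl (0.43) were higher as well. Vegfa (-0.43) and Pfkfb4 (-0.57) were lower. All of these passed without any 1 library. A Hif1a region had peaks in 3 of 3 Res and 0 of 3 Res_Ctrl lists. After removal of chromosome medians 5 of the 19 were higher, and per called base after rescaling 3. The calls lost per called base were those of Slc2a1 (0.12), Pdk1 (0.12), Hk2 (0.18), Gapdh (0.14), Pfkl (0.09) and Pfkfb4 (-0.05). After removal of chromosome or window medians Ldha (0.22 and 0.18), Pfkl (0.23 and 0.15) and Vegfa (-0.13 and -0.14) lost theirs, and Slc2a1 after window medians alone (0.50).

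Circadian clock genes were higher in 3 of 14 cases and lower in 4 (median -0.12), beside 10.5% and 18.6% of all genes. Per1 had 77.9, 39.2 and 64.7 CPM in Res_Ctrl, against 113, 101 and 123 in Res (log2 -0.88 ± 0.20, adjusted p = 0.00567), and Nfil3 (-0.76) and Per2 (-0.60) were lower too. No clock gene was higher without Res_Ctrl replicate 2 or 3, 1 was without Res_Ctrl replicate 1, Res replicate 2 or Res replicate 3, and after removal of chromosome medians 0 were higher and 1 lower. Wnt, Notch, Hippo and BMP genes were higher in 3 of 20 cases and lower in 4 (median 0.01), beside 10.5% and 18.6% of all genes. In this list 2 were lower without Res_Ctrl replicate 3 or Res replicate 1. Amotl2, an inhibitor of YAP, had 227, 229.7 and 221 in Res_Ctrl, against 447, 502 and 427 in Res (log2 -1.02 ± 0.08, adjusted p = 1.34e-05), with the groups apart, while Wnt7b (0.55) and the Notch target gene Hes1 (0.53) were higher. Per called base after rescaling Amotl2 (-0.08) and Per1 (-0.04) lost their calls, and after removal of chromosome medians Per1 (-0.50) and Per2 (-0.21).

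Cell cycle genes were higher in 4 of 24 cases and lower in 2, Ccnd2 and Myc (median 0.04), beside 10.5% and 18.6% of all genes. The 4 higher genes fell to 2 without Res_Ctrl replicate 3 or Res replicate 2, 1 without Res_Ctrl replicate 2 and 0 without Res replicate 3, and after removal of chromosome medians 0 were higher and 4 lower. Histone acetylation enzymes and readers were lower in 4 of 21 cases and higher in 0 (median 0.03), beside 18.6% and 10.5% of all genes. At an unadjusted p under 0.05 in edgeR 2 were higher, and 1 was higher with DESeq2. In that list Brd2, an acetyl-lysine reader, was lower (-0.50) also without any 1 library. Without Res_Ctrl replicate 1, 6 of the list were lower, and without Res_Ctrl replicate 2 or 3 or Res replicate 1 or 2, 2. Housekeeping genes were higher in 2 of 21 cases and lower in 5 (median -0.02), beside 10.5% and 18.6% of all genes. Without Res_Ctrl replicate 1, Res replicate 1 or Res replicate 2, 3 were lower. The 5 lie on chromosomes 11 and 17, and 0 were lower after removal of chromosome medians. Of 15 neural and glial markers 10 had no peak at their annotated ends in the 6 lists, Sox10, Gfap and Rbfox3 among them. Of the 4 tested (median 0.74), the region shared by Nes, nestin, and Bcan (log2 1.57 ± 0.21, adjusted p = 0.000248) and that shared by S100b and Dip2a (1.20) were higher, and that shared by Eno2 and Atn1 was lower (-0.67). Brd2 lost its call after removal of chromosome (-0.19) or window medians (-0.20), and the region of Eno2 and Atn1 per called base after rescaling (-0.15).

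**Figure D3:**
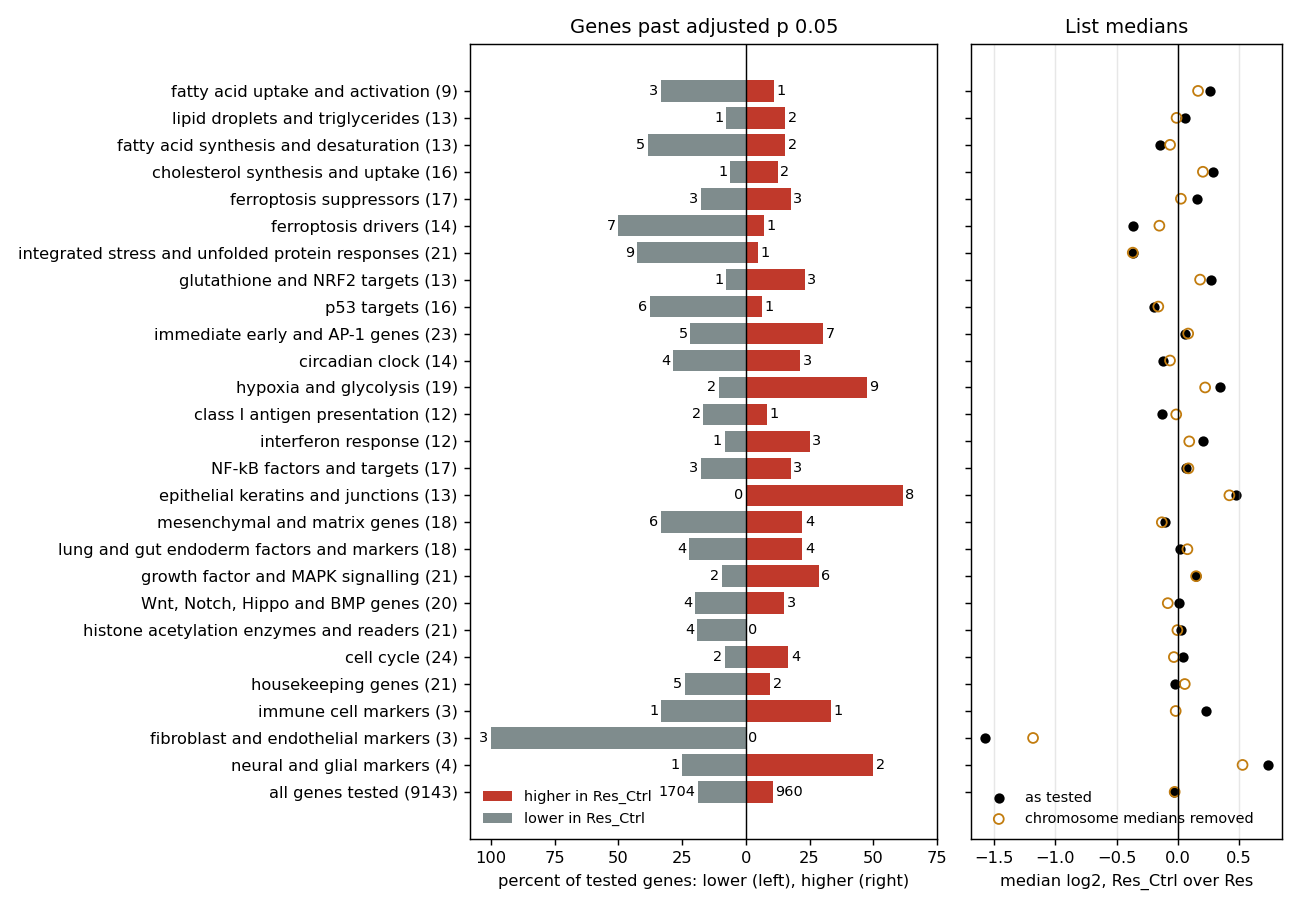
Left, percent of tested genes per list that were higher (red, to the right) or lower (grey, to the left) in Res_Ctrl than in Res, with the counts at the bar ends and the number tested in brackets. Right, the median log2 of Res_Ctrl over Res per list as tested (black) and after removal of chromosome medians (open orange): the epithelial list was at 0.48 and the stress-response list at -0.37, beside -0.03 for all genes.

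Some regions had peaks in one group only. Of the 27409 merged regions, 1601 (5.84%) had a peak in all 3 Res_Ctrl lists and in none of the Res lists (gained), and 1395 (5.09%) the reverse (lost). Of 11158 genes with any region, 169 (1.51%) had a gained and 205 (1.84%) a lost region within 1 kb of an end. Of gained regions 1367 (85.4%) and of lost regions 1120 (80.3%) lay at neither an annotated start nor another gene end, beside 56.6% of all merged regions, a difference that was not tested. With 3 lists against 3 no test of a single region can pass the threshold, and the absence of a peak is not the absence of tags.

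The gained regions with the densest tags included Myrf, a membrane-bound transcription factor known for myelination, with 987, 714 and 967 tags in the Res_Ctrl lists. The 2 regions of Csf1 had 1286, 1052 and 1140 tags and 664, 529 and 604 tags in the Res_Ctrl lists. Prdm16, a transcriptional regulator of brown fat and stem cells, had 539, 397 and 420 tags at a start. None of them had a peak in a Res list, and each had peaks in 3 of 3 Sen and 3 of 3 Res_shFabp7 lists. Gcnt3, a mucin glycosyltransferase gene, Sord, sorbitol dehydrogenase, Gimd1 and the autophagy gene Atg2a were the others of the 8 densest.

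The 8 lost regions with the densest tags all lay at annotated starts. Gli3, a transcription factor of Hedgehog signalling, had 622, 377 and 358 tags in the Res lists. Meis1, a homeobox factor, had 408, 311 and 285 tags there. Pcdh18, a protocadherin gene, had 322, 239 and 247 tags, and Kctd15 had 329, 267 and 287. These 4, and Sertad4 with 543, 359 and 270 tags, had no peak in any Res_Ctrl, Sen or Res_shFabp7 list. Cpne8 and the region shared by Aurkaip1 and Mxra8 had peaks in 3 of 3 Res_shFabp7 lists, and Hhat, which palmitoylates Hedgehog proteins, had peaks in 2 of 3 Sen lists. By the list rule Rorb, Rpl3 and H2-M3 also had a lost region, and Srf and the region shared by Stat2 and Apof a gained one.

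Across all gained regions 88.8% had a peak in 3 of 3 Res_shFabp7 lists and 35.7% in 3 of 3 Sen lists, beside 74.6% and 51.1% of all merged regions. A peak in 0 of 3 lists was found at 0.94% of gained regions for Res_shFabp7 and at 16.2% for Sen. Tags in peaks were 2.24, 5.91 and 5.30 M in the Sen lists and 5.10, 7.17 and 10.5 M in the Res_shFabp7 lists. The part of this depth in the shares was not tested. Across all lost regions 11.97% had a peak in 3 of 3 and 56.8% in 0 of 3 Res_shFabp7 lists, and 3.15% had one in 3 of 3 and 71.9% in 0 of 3 Sen lists. For all merged regions 10.9% had a peak in 0 of 3 Res_shFabp7 lists and 22.9% in 0 of 3 Sen lists. H3K9ac peaks stood at 7.75%, 12.2% and 30.9% of gained regions in the Res_Ctrl libraries, against 0.625%, 1.31% and 1.12% in the Res libraries. At lost regions the shares were 0.645%, 1.94% and 6.02% in the Res_Ctrl libraries, against 15.4%, 21.2% and 21.9% in the Res libraries. Of all merged regions 40.8%, 45.0% and 55.0% had an H3K9ac peak in the Res_Ctrl libraries, and 43.8%, 46.7% and 47.4% in the Res libraries. Most gained and lost regions thus had no H3K9ac peak in any given library, also in the group with the H3K27ac peak. The share with an H3K9ac peak, from separate libraries of the same groups, was nevertheless larger in that group, without overlap of the 6 libraries.

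**Figure D4:**
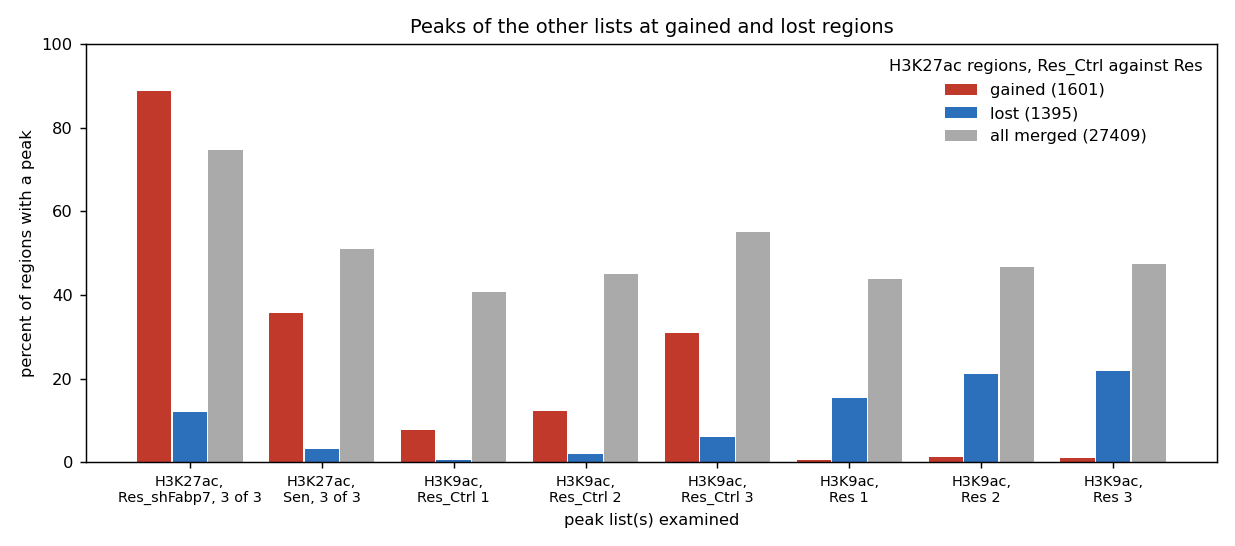
Percent of H3K27ac regions gained (red) or lost (blue) in Res_Ctrl against Res, and of all merged regions (grey), that overlap a peak in 3 of 3 lists of Res_shFabp7 or Sen (H3K27ac) or in each H3K9ac library of Res_Ctrl and Res. Gained regions had Res_shFabp7 peaks in 88.8% of cases and lost regions in 11.97%.

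The 5 changed regions away from gene ends with the largest differences are given by position (mm10). The region at chr13:114847359-114855064, inside the collagen-receptor gene Itga2, had 132, 168 and 151 CPM in Res_Ctrl, against 14.8, 22.3 and 20.7 in Res (2.98 ± 0.16). The region at chr19:28285979-28301538, inside Glis3, a zinc-finger factor gene, had 421, 513 and 503 in Res_Ctrl, against 67.8, 97.9 and 36.0 in Res (2.83 ± 0.26). Both groups were far apart at these intragenic regions. The region at chr17:79830343-79841090, 7262 bases from Atl2, the nearest gene, had 30.8, 19.3 and 21.6 in Res_Ctrl, against 219, 241 and 179 in Res (-3.14 ± 0.18). The region at chr1:91689679-91696128, 105333 bases from Twist2, had 15.8, 13.99 and 35.8 in Res_Ctrl, against 177, 197 and 198 in Res (-3.11 ± 0.26). At chrX:73464043-73472099, 5014 bases from Haus7, the levels were 16.8, 13.1 and 22.9 in Res_Ctrl, against 133, 137 and 120.1 in Res (-2.88 ± 0.17). The adjusted p-values of the 5 ran from 2.24e-06 to 2.4e-05 (edgeR). The start-site region of Twist2 itself was among the lost regions (above). Per called base after rescaling the differences were 0.72 at the region in Itga2, 1.20 in Glis3, -0.71 near Atl2, -1.22 near Twist2 and -0.51 near Haus7, all still past the threshold.

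Differences were also arranged by chromosome. The median log2 over tested regions was -0.41 on chromosome 1, -0.40 on chromosome 11, -0.31 on chromosome 17 and -0.30 on chromosome 15, where 50.7%, 52.3%, 38.2% and 39.7% of regions were lower in Res_Ctrl. It was 0.24 on chromosomes 8 and 7, 0.21 on 18 and 0.20 on 10, where 36.2%, 29.9%, 27.4% and 24.9% were higher. On chromosome 11, relative to the Res mean, the libraries had medians of -0.34, -0.42 and -0.42 in Res_Ctrl, against -0.02, 0.02 and 0.02 in Res. The 2 groups did not overlap on 14 of the 20 chromosomes, each with the smallest p that the two-sided exact permutation test allows, 0.1; they overlapped on 3, 6, 9, 14, 16 and X. H3K9ac medians were -0.37 on chromosome 1, -0.33 on 11, -0.27 on 17, -0.23 on 15, 0.23 on 8 and 7, 0.14 on 18 and 0.17 on 10. Per called base after rescaling, the H3K27ac medians were smaller, -0.19 on chromosome 1, -0.20 on 11 and 0.11 on 8 and 7. The number of copies of each chromosome in the 2 cultures was not measured here, and its part in these medians was not tested.

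Medians were taken over 406 windows of 5 Mb with at least 10 tested regions. In 19 the median was at least 0.5 below that of all tested regions (-0.02), and in 4 at least 0.5 above it. The groups were apart in each of these, a separation that the choice of windows by their difference favours. The lower windows were 9 of chromosome 1, 4 of chromosome 4 and 3 each of chromosomes 11 and 15. The lowest, 80 to 85 Mb of chromosome 4, held Nfib, a factor of lung maturation, and had 18 of 19 regions lower, with a median of -1.05 for H3K27ac and -0.76 for H3K9ac. Chromosome 4 was divided, since its windows at 45 to 50, 55 to 60 and 60 to 65 Mb had medians of -0.72, -0.68 and -0.84 while the whole chromosome was at 0.10. The higher windows held Foxa2 (chromosome 2, 145 to 150 Mb, median 0.65), Sh3rf1 and Cpe (chromosome 8, 60 to 65 Mb, 0.51), Phlda1 (chromosome 10, 110 to 115 Mb, 0.58) and Klf5 (chromosome 14, 95 to 100 Mb, 0.59). Nfib was at -0.75 as tested and at 0.27 after removal of window medians, past the threshold both times. Klf5 was at 0.48 as tested and at -0.27 per called base after rescaling, also past it both times. Per called base after rescaling Phlda1 (0.06), Sh3rf1 (0.06) and Cpe (0.14) lost their calls. With tags per called base, under either scaling, 0 windows passed these limits.

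**Figure D5:**
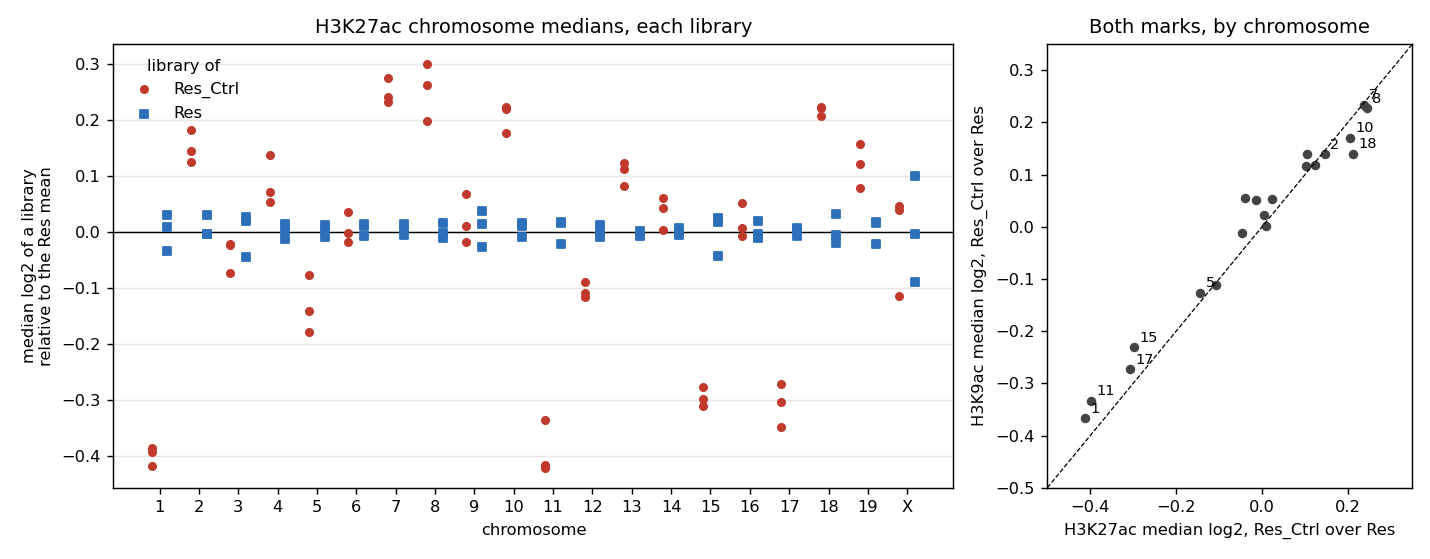
Left, median log2 of each library relative to the Res mean over the tested H3K27ac regions of each chromosome, for the 3 Res_Ctrl libraries (red circles) and the 3 Res libraries (blue squares). Right, chromosome medians of H3K9ac against those of H3K27ac (log2 of Res_Ctrl over Res) with the line of equality: chromosome 1 lay at -0.41 for H3K27ac and -0.37 for H3K9ac.

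H3K9ac gave the same comparison in 3 other libraries per group. Of 9371 genes tested 1702 were higher in Res_Ctrl and 2212 lower, 41.8% in all. Higher genes were 43.5% of those changed, and 20.6% per called base (307 higher, 1180 lower). At genes named above the H3K9ac differences were 1.30 at Krt7, 1.42 at Pkp3, 1.01 at Hnf4a and 1.49 at Fosb, each higher in Res_Ctrl. They were -1.45 at Asns, -1.11 at Shmt2, -1.24 at Sqstm1, -1.11 at Gch1, -1.66 at Fn1 and -2.11 at Ccnd2, each lower. All 10 passed the same threshold. Clca3a1, Sparc, Cd53, Aqp1 and Itgb2 had no H3K9ac region called in all 6 lists, and Slc27a1 (-0.17), Tnfaip2 (0.07) and Per1 (0.14) did not pass in H3K9ac.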

How the data were processed

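Chromatin immunoprecipitation sequencing of H3K27ac and H3K9ac was deposited as 1 peak list per library. Reads, 53 to 158 M per sample per the labels, were placed on mm10 by Bowtie 1.1.2, and MACS 1.4.2 made the peak lists, per the submitters' processing notes; whether inputs served as controls is not given in the sources used here. In the deposited lists the tags of a peak are raw counts. The deposited score of each peak is 10 times the negative log10 of its p-value, 50 or higher in each list, and the deposited fold enrichment ratio was not used. Tags outside peaks were not analysed here, so the depth is the total of tags in peaks. The 4 input samples were not used, and 0 columns of sample values were left unmapped.

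Peaks overlapping by at least 1 base across the 6 lists were merged. Counts at regions called in all 6 were scaled by TMM and tested with edgeR 4.0.16 (quasi-likelihood, robust, R 4.3.3) with Benjamini-Hochberg adjustment over all regions of the mark at 0.05. The replicate number was not used as a block, because whether equal numbers pair the libraries is not known. The procedure was tested on simulated data. A gene took the tested region with the highest mean level within 1 kb of either end of its annotation (21887 RefSeq protein-coding genes). Gained and lost regions have a peak in all 3 lists of one group and none of the other. Per called base means tags divided by the length called in each library.

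Members, the 27 gene lists (642 entries) and tests were chosen with earlier results of these data known. Named were the 10 genes with the largest change in each direction among non-overlapping groups, up to 4 changed members per list, the fixed genes Fabp7, Fabp3, Fabp4, Fabp5, Gpx4, Acsl4, Slc7a11, Plin2, Trib3, Igf2bp1, Cdkn2a, Jak1 and Cd274, the 8 densest gained and 8 densest lost regions, gained or lost list members, genes of windows and 5 distal regions. Other list members, including those that did not pass, were added after their values were seen, and the values of some genes that this rule names are not reported here. Alternatives were DESeq2 1.42.0, other size factors, stricter peaks (p of 1e-10), 200-base overlap, a mean of at least 50 tags, an intensity trend offset, per-base tags, removal of chromosome or window medians, a wider gene window, all 4 groups in the fit and leaving out each library. The per-base alternative with rescaling and the one with start-site regions only were chosen after seeing the data.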

Additional observations from a re-analysis of the deposited data

How the results depend on the processing

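Of 111 named genes that passed, 90 passed without any 1 library, and of 60 other list members that passed, 29 did. Leaving out 1 library gave 1763 to 2397 higher and 1829 to 2411 lower regions, 736 to 976 higher and 1035 to 1511 lower genes, 1678 to 2207 gained and 1459 to 1880 lost regions, 2 to 6 higher and 17 to 21 lower windows, a difference in peak number of -126 to 1489 and in called length of -5.55 to 0.798 Mb. Per called base, 1077 regions were higher and 325 lower, 312 and 194 genes, and for H3K9ac 307 and 1180 genes. Removal of chromosome medians left 1671 lower regions, 715 lower genes, and 1076 higher and 1201 lower H3K9ac genes; removal of 5 Mb window medians left 1501 lower regions, 600 higher and 638 lower genes, and 938 and 1184 H3K9ac genes. With windows of 2 Mb 11 were higher and 29 lower, and per called base 0 and 0 under either scaling. Per called base the medians of chromosomes 5 and 12 were 0.0058 and 0.017, Aldh3a1 was at 0.014, Ets2 -0.0081, Met 0.050, Ncoa1 0.020, Per1 0.012, Slc11a2 0.17 and Slc27a1 0.10. After rescaling Ets2 was at -0.078, Slc11a2 at 0.096 and Slc27a1 at 0.038. Without chromosome medians Canx was at 0.025 and Kat7 at 0.0090, and without window medians Canx at 0.0094, Kat7 at 0.024, Dbi at 0.22, Ppia at 0.0051 and Prdx6 at 0.10. At start sites alone Tnfaip2 was at -0.041. In these cases the cause was not tested. A mean of at least 50 tags changed nothing. Stricter peaks gave 1327 gained and 1131 lost regions, and equal numbers of peaks 1540 and 1602. Deviations of same-numbered libraries correlated at 0.36, 0.08 and 0.10, and whether the numbers pair the libraries is not known. With the replicate number as a block 2657 regions were higher and 3164 lower, and 1145 and 1939 genes. Density of tags limits the presence of peaks, since a list shows a region only above its threshold.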
